A study of Homo sapiens with 12 samples.

Results

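The genes described here are 40 genes of integrin adhesion, listed by symbol and found among the 58051 gene rows of every count table. They comprise 13 integrin alpha subunits, 8 integrin beta subunits and 19 genes that tie integrins to actin and to signalling. All 40 were found. RNA-seq had been performed in 12 libraries of 3 established human renal carcinoma lines, each a single line grown in culture. In 786-O, 1 library of cells given a miR-29 mimic was set against 1 library given a control mimic. In A-498, 2 miR-29 mimic libraries were set against 2 control mimic libraries, labelled replicates 1 and 3, and further A-498 libraries that the study set aside for doubtful labels were not analysed here. In ACHN, 3 libraries with a miR-29 inhibitor were set against 3 with a control inhibitor. All cells were transfected with 10 nM of reagent and RNA was taken 48 h later. The mimic adds miR-29 activity and the inhibitor blocks it, so the question asked of each gene was whether its mRNA moved with each reagent, and how the lines differed without it.

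Integrins are transmembrane receptors made of 1 alpha and 1 beta subunit, and the pair decides which matrix protein is bound. Several alpha subunits share ITGB1 as partner, whereas ITGAV also pairs with ITGB3, ITGB5, ITGB6 and ITGB8. Talins and kindlins bind the beta tail and switch the receptor on. The complex of integrin-linked kinase, PINCH (LIMS1, LIMS2) and parvin, together with vinculin, alpha-actinin, filamin, tensin and zyxin, couples it to actin, and focal adhesion kinase (PTK2), paxillin (PXN) and p130Cas (BCAR1) relay signals. In kidney epithelium these receptors hold cells to the laminin and collagen of the basement membrane. The miR-29 family is known as a repressor of collagen and other matrix mRNAs.

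The mature miR-29 strands are shown because the 3 family members share the seed (nucleotides 2 to 8, in capitals) that sets which mRNAs can pair. The sequences are from RefSeq (GRCh38.p14), written 5′ to 3′.
miR-29a-3p: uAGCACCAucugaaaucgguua
miR-29b-3p: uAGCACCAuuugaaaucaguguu
miR-29c-3p: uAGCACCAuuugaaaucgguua

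Exact matches to this seed were searched on the sense strand of the 3′ UTR of the MANE Select transcript (the agreed reference isoform), within its first 2000 nt. The word searched was TGGTGCT (7mer-m8), or TGGTGCTA where an A followed (8mer, which contains the 7mer-m8). Such a match was present in 5 of the 40 genes, and in 10.1% of 18780 genes with such a UTR. The 5 sites are printed in mRNA sense as GRCh38 has them, with the match in capitals, since the results compare genes with and without one.
FERMT2, 963 nt after the stop codon, chr14:52857407-52857414, minus strand: tacaatctgtatTGGTGCTAgtcaga
ITGB1, 830 nt after the stop codon, chr10:32900734-32900740, minus strand: ttgtttaatgtcTGGTGCTttctgt
VCL, 792 nt after the stop codon, chr10:74118961-74118967, plus strand: cacactgtgtccTGGTGCTctctgc
TLN2, 1445 nt after the stop codon, chr15:62842055-62842061, plus strand: acgggggaaagtTGGTGCTttggtc
BCAR1, 1106 nt after the stop codon, chr16:75228399-75228405, minus strand: gcttggaaccccTGGTGCTgctccc

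Only FERMT2 held the 8mer. The ITGB1 match lies in the MANE Select isoform and is not in the isoform with the longest annotated 3′ UTR. Further downstream, beyond 2000 nt, ITGA2 (2090 nt), PARVA (3370 nt) and LIMS1 (3212 nt) held a 7mer-m8, which made 8 of 40 genes over the whole UTR against 14.1% of genes. A match is a string of letters and was not taken as a functional site.

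Libraries held from 39919554 to 70027392 reads in genes. As a check of the labels, 8 known miR-29 targets outside the member list were all lower with the mimic in A-498 (log2 change from -3.58 to -0.47), all higher with the inhibitor in ACHN (from 0.58 to 2.48), and all below control in 786-O (from -3.00 to -0.45). PAX8, VIM and the keratins KRT8 and KRT18 were present in every control library, and PECAM1, CDH5, VWF, PTPRC, CD3E and LYZ were each below 0.1 RPKM (reads scaled to gene length and library size). Of 6 renal markers, 4 were over 1 RPKM in each line. Of 5 epithelial markers, 3 were in 786-O and A-498 and 5 in ACHN. NDUFA4L2 had 5 counts in the 786-O control and 9 in each A-498 control. CDH1 had 2 counts in the 786-O control, and 22 and 13 in the A-498 controls. The fibroblast markers PDGFRB, DCN and LUM summed to 7.48 RPKM in the 786-O control and to at most 0.285 RPKM in the control libraries of the other lines. LUM made up 6.73 RPKM of this, DCN was at 0 there, and LUM went from 785 to 276 counts with the mimic in 786-O (log2 ratio -1.52). PDGFRB, on 31 to 99 counts, was lower in A-498 (-1.51 ± 0.20, adjusted p = 2.21e-05), and in ACHN both PDGFRB (0.79 ± 0.15, adjusted p = 0.000458) and DCN (1.12 ± 0.29, adjusted p = 0.00563, at most 44 counts) were higher. The part of these markers in the results for integrin genes was not tested. The labels call all 3 lines clear cell carcinoma, yet CA9, a defining marker of that tumour, was at 4.46 and 4.36 RPKM in A-498 and at most 0.105 RPKM in 786-O and ACHN. EPCAM was from 20.6 to 21.8 RPKM in ACHN and at most 0.434 RPKM in the other lines.

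The integrin repertoire without added miR-29 activity was read from the 6 control libraries, per gene length. ITGA3, ITGA5 and ITGAV were the 3 most abundant alpha genes in every line, and ITGB1 was the most abundant beta gene. ITGB1 made up 42.9% of the summed beta RPKM in 786-O, and 65.0% and 65.1% in A-498 and ACHN. Per MANE Select transcript these shares were 67.6%, 83.9% and 83.7%. Below it the lines parted, with ITGB3 and ITGB8 weighted to 786-O, and ITGB6, ITGB4 and ITGB2 to ACHN.

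**Figure D1:**
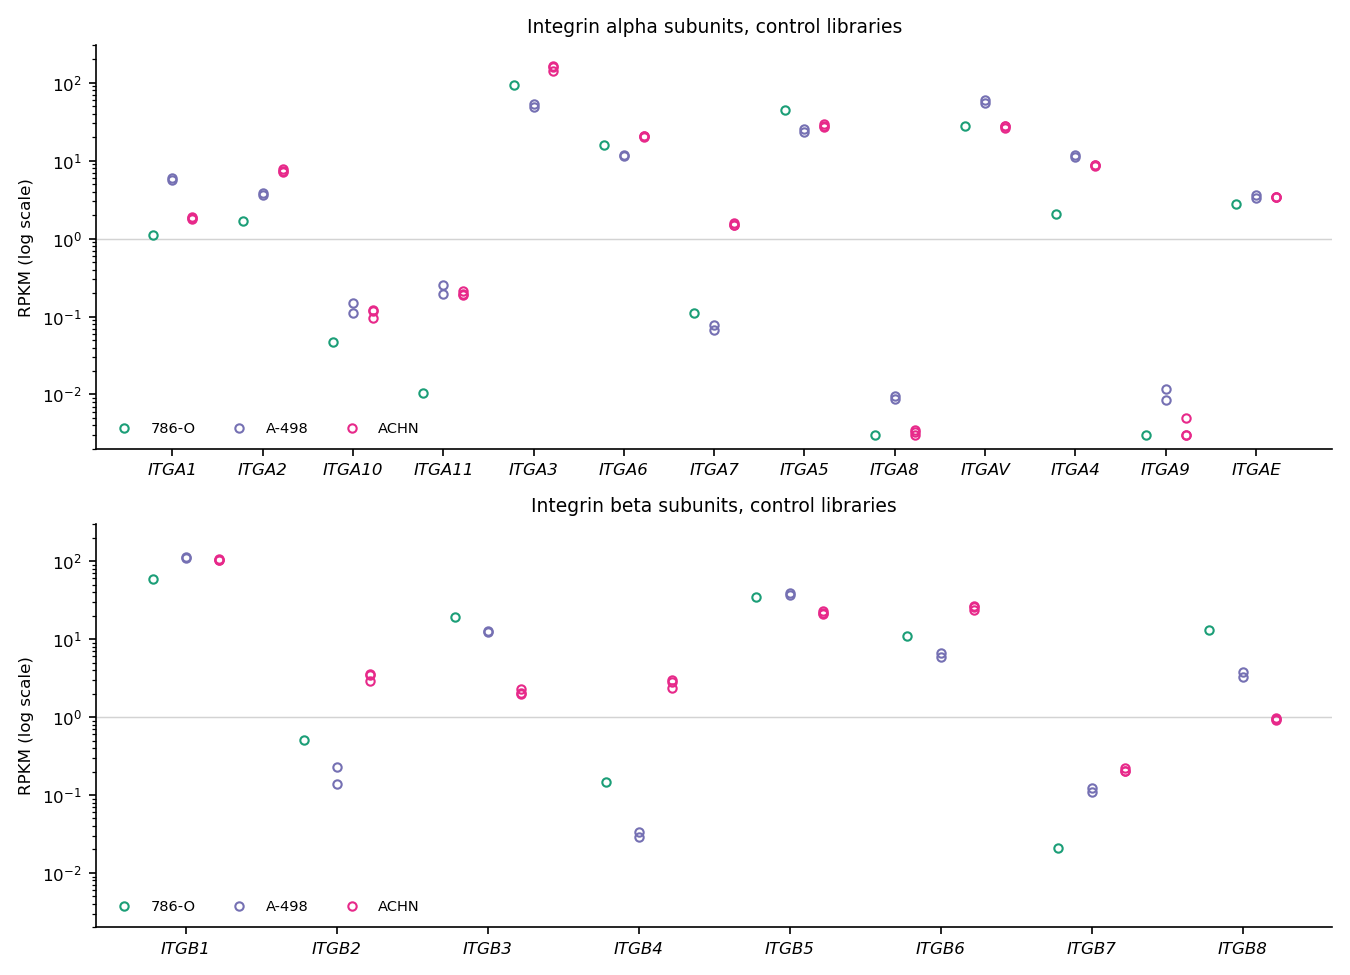
RPKM (log scale) of the 13 alpha and 8 beta integrin genes, 1 circle per control library of 786-O (1), A-498 (2) and ACHN (3); values under 0.003 are drawn at 0.003. ITGB1 lies near 100 RPKM in A-498 and ACHN, and ITGB8 runs from 12.9 RPKM in 786-O to about 0.9 RPKM in ACHN.

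ITGA3, which with ITGB1 forms a laminin receptor, was at 93.6 RPKM in 786-O, 53.0 and 49.0 in A-498, and 140.4, 158 and 163 in ACHN. ITGAV, the alpha subunit of several receptors for RGD-bearing ligands, was at 27.8 RPKM in 786-O, 55.4 and 60.4 in A-498, and 27.5, 28.1 and 26.6 in ACHN. ITGA5, the fibronectin receptor subunit, was at 44.4 RPKM in 786-O, 25.1 and 23.2 in A-498, and 26.8, 28.2 and 29.5 in ACHN. Thus ITGA3 led in 786-O and ACHN, ITGAV led in A-498, and for ITGA3 no library of one line fell within the range of another. ITGAV in 786-O and ACHN did not pass the test (log2 difference 0.08 ± 0.06 SE, adjusted p = 0.183). In ACHN, ITGA5 and ITGAV were neighbours whose order was set by the length used: ITGA5 was ahead per union of exons (28.2 against 27.4 mean RPKM) and behind per MANE Select transcript (48.9 against 75.3).

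ITGA6, a second laminin receptor subunit that pairs with ITGB1 or ITGB4, was at 16.1 RPKM in 786-O, 11.3 and 11.97 RPKM in A-498, and 20.2 to 20.7 RPKM in ACHN. The collagen receptor genes were spread over the lines: ITGA1 was highest in A-498 (5.60 and 5.90 RPKM, against 1.11 in 786-O and from 1.78 to 1.87 in ACHN), and ITGA2 was highest in ACHN (from 7.21 to 7.71 RPKM, against 1.70 in 786-O, with 3.60 and 3.88 in A-498). ITGA11 and ITGA10 stayed below 0.3 RPKM everywhere. ITGA4, a receptor subunit for fibronectin and VCAM1, was at 2.07 RPKM in 786-O, 11.3 and 11.8 in A-498, and from 8.55 to 8.80 RPKM in ACHN. ITGA7 passed 1 RPKM in ACHN alone (from 1.49 to 1.59). ITGAE differed little between lines, from 2.79 to 3.66 RPKM. ITGA8 and ITGA9 were at or near 0, with at most 4 and 12 counts in any library of the series.

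ITGB1 was at 58.9 RPKM in 786-O, 110.3 and 115 in A-498, and 107, 105 and 104 in ACHN. The 786-O library was lower than both other lines, and the small gap between A-498 and ACHN (log2 difference 0.12 ± 0.04, adjusted p = 0.0121) was no longer called without control replicate 3 of A-498 (0.10, adjusted p = 0.106). ITGB5, a vitronectin receptor subunit with ITGAV, was at 34.6 RPKM in 786-O, 38.9 and 36.6 in A-498, and 21.7, 21.3 and 22.8 in ACHN. It was lower in ACHN than in A-498 (log2 difference of A-498 minus ACHN 0.81 ± 0.04, adjusted p = 3.55e-17), while 786-O and A-498 did not pass the test (-0.09 ± 0.06, adjusted p = 0.158).

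ITGB3, ITGB6 and ITGB8 are the other partners of ITGAV. ITGB3 was at 19.5 RPKM in 786-O, 12.7 and 12.5 in A-498, and 1.996, 2.06 and 2.27 in ACHN. ITGB8 was at 12.9 RPKM in 786-O, 3.29 and 3.75 in A-498, and 0.968, 0.916 and 0.946 in ACHN. ITGB6 ran in another order, at 10.9 RPKM in 786-O, 5.98 and 6.61 in A-498, and 26.3, 23.9 and 25.8 in ACHN. All 9 differences between pairs of lines for these 3 genes passed the test, as did from 73.6% to 75.3% of all tested genes in the same contrasts. The smallest was ITGB3 between 786-O and A-498 (log2 difference 0.67 ± 0.07, adjusted p = 3.8e-10), and the largest was ITGB8 between 786-O and ACHN (3.84 ± 0.07, adjusted p = 2.38e-29). In ACHN, ITGB6 stood ahead of ITGB5 per union of exons (25.3 against 21.9 mean RPKM) and level with it per MANE Select transcript (31.5 against 32.2).

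ITGB4, the beta subunit of hemidesmosomes, was at 0.146 RPKM in 786-O, 0.0338 and 0.0286 in A-498, and from 2.38 to 2.95 RPKM in ACHN. ITGB2, better known from leukocytes, was from 2.90 to 3.58 RPKM in ACHN and at most 0.505 RPKM elsewhere. The leukocyte markers PTPRC, CD3E and LYZ were near 0 in the same libraries (summed level at most 0.0766 RPKM). ITGB7 was at most 0.221 RPKM in any control library.

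Among the cytoplasmic genes, the actin cross-linker FLNA was the most abundant by length in all lines (394 RPKM in 786-O, 217 and 195 in A-498, from 179.5 to 207 in ACHN). Several genes of this kind were highest in 786-O. Zyxin (ZYX) was at 138 RPKM there and from 31.7 to 43.5 in the other lines, and TNS1 was at 19.0 RPKM and from 2.07 to 2.697. LIMS1 was at 36.0 RPKM in 786-O and from 8.27 to 12.5 elsewhere. TNS3 went the other way, at 13.9 RPKM in 786-O, 43.3 and 40.3 in A-498, and from 19.97 to 22.2 RPKM in ACHN. PARVA was low in A-498 (2.25 and 2.38 RPKM, against 7.43 in 786-O and from 8.07 to 8.28 in ACHN). FERMT1, the epithelial kindlin, had 3 counts in each A-498 control library, 647 counts in 786-O and from 846 to 987 counts in ACHN. ILK differed least, from 38.0 to 43.2 RPKM over all 6 libraries.

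In all, 32 of 38 tested members differed between A-498 and ACHN (84.2%, with 75.3% of all tested genes called), 36 of 38 between 786-O and A-498 (94.7%, background 74.7%) and 34 of 38 between 786-O and ACHN (89.5%, background 73.6%). The single 786-O library was assumed to vary like the others. 786-O and A-498 had both been given the control mimic, whereas in the contrasts with ACHN, given the control inhibitor, line and control reagent cannot be told apart. In all of these contrasts, line and sequencing run cannot be told apart either. Reads assigned to no gene were 45.7% in the 786-O control library. They were 37.2% and 38.7% in the A-498 controls, and from 38.7% to 40.6% in the ACHN controls.

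In A-498, added miR-29 activity went with a fall of ITGB1 and of many of its alpha partners, and with a fall of all 5 genes of the integrin-linked kinase complex. Of 37 members tested, 19 were lower and 7 higher with the mimic at an adjusted p under 0.05 (edgeR quasi-likelihood test), and 11 were not called. Those are 51.4% lower and 18.9% higher, beside 27.0% and 25.5% of the 19676 genes tested (52.5% in either direction). Here and in the other comparisons, all genes tested include many with few counts and were not matched to the members by expression level. The median log2 change was -0.24 over the tested members and 0.00 over all genes. Without control replicate 1 the member median was -0.15, and with library size alone it was -0.17 (all genes 0.08). Of the members, ITGA8, ITGA9 and FERMT1 had too few counts to be tested.

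**Figure D2:**
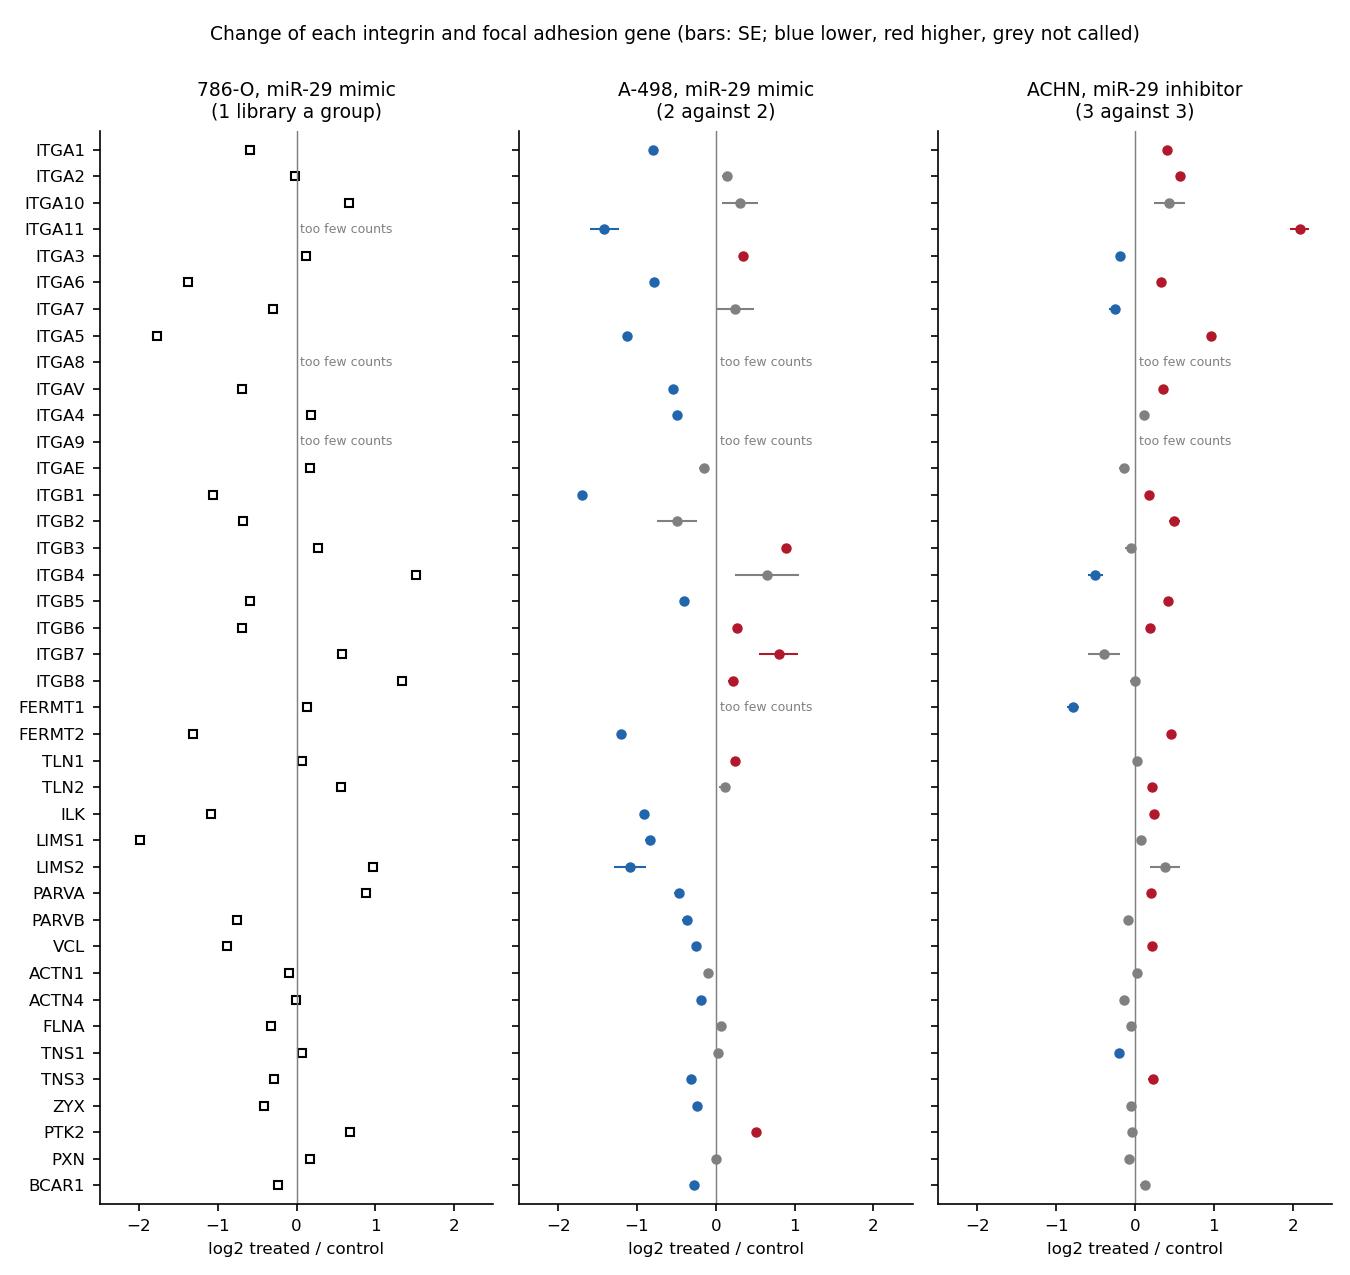
Log2 change of each of the 40 genes with the miR-29 mimic in 786-O (squares, 1 library a group) and A-498 (2 against 2) and with the miR-29 inhibitor in ACHN (3 against 3). Circles with SE bars are coloured by the test (blue lower, red higher, grey not called); 19 circles are blue in A-498 and 16 are red in ACHN.

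ITGB1 had the largest change of the called members. Its level was 1693 and 1763 CPM (reads of the gene relative to all gene reads, after TMM scaling within the line) in the control libraries and 533 and 533 CPM in the mimic libraries. The groups were far apart, with a log2 change of -1.70 ± 0.03 (SE, n = 2 against 2; adjusted p = 8.05e-14 by edgeR), or 3.24-fold lower. Of the alpha subunits that pair with ITGB1, ITGA5 was at 196 and 181 CPM in control and 88.7 and 83.8 CPM in mimic libraries. Both mimic libraries were far below both controls (log2 change -1.13 ± 0.05, adjusted p = 1.27e-10).

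ITGA1 fell from 109.5 and 116 CPM to 65.2 and 64.4 CPM (log2 change -0.80 ± 0.04, adjusted p = 2.51e-09). ITGA6 fell from 79.9 and 84.5 CPM to 47.8 and 48.0 CPM (-0.78 ± 0.05, adjusted p = 5.84e-09). ITGA11, a receptor subunit for fibrillar collagen, was low throughout, with 156 and 133 counts in control and 55 and 61 counts in mimic libraries, and its log2 change was -1.41 ± 0.18 (adjusted p = 1.67e-05). For none of these genes did the groups overlap, but neither did they for genes not called, among them ITGA2, ITGA7, ITGB4 and TNS1. The share over all genes was not counted. ITGA4 was also lower (-0.50 ± 0.04, adjusted p = 1.62e-07).

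The laminin receptor subunit ITGA3 went the other way, from 548 and 508 CPM to 667 and 678 CPM (log2 change 0.35 ± 0.04, adjusted p = 3.27e-06). It was the one alpha gene called higher. ITGA2, ITGA10, ITGA7 and ITGAE were not called, with log2 changes between -0.15 and 0.30.

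The ITGAV group split. ITGAV itself fell from 1129 and 1235 CPM to 828 and 799.7 CPM (log2 change -0.54 ± 0.04, adjusted p = 5.86e-08), and ITGB5 fell from 267 and 252 CPM to 196 and 197 CPM (-0.40 ± 0.04, adjusted p = 9.08e-07). The other 3 partners of ITGAV rose. ITGB3 went from 91.2 and 90.1 CPM to 167 and 170.4 CPM (0.89 ± 0.04, adjusted p = 2.18e-10), although 33.2% of its exon length is shared with a same-strand gene model that overlaps it, where reads could not be counted. ITGB6 rose from 36.5 and 40.4 CPM to 45.7 and 47.4 CPM (0.27 ± 0.06, adjusted p = 0.00101). ITGB8 rose from 52.6 and 60.0 CPM to 67.5 and 63.8 CPM (0.22 ± 0.06, adjusted p = 0.00669), a call that was lost without mimic replicate 1 (0.17, adjusted p = 0.0801). ITGB7, the partner of ITGA4 and ITGAE, was barely expressed. With 30 to 67 counts a library it was called higher (0.80 ± 0.25, adjusted p = 0.0139), and that call was lost with DESeq2 (adjusted p = 0.163) and without control replicate 3 (adjusted p = 0.0551) or mimic replicate 1 (adjusted p = 0.161). ITGB2 and ITGB4 were not called, at most 94 and 26 counts in any A-498 library.

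FERMT2 (kindlin-2), which activates integrins together with talin, fell from 79.9 and 83.6 CPM to 36.3 and 34.7 CPM (log2 change -1.20 ± 0.05, adjusted p = 1.19e-10). The talin gene TLN1 rose slightly (0.25 ± 0.04, adjusted p = 3.85e-05) and TLN2 was not called (0.12 ± 0.07, adjusted p = 0.194).

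The integrin-linked kinase complex was lower as a whole in this line, 5 of 5 genes called, beside 27.0% of all genes tested. No other role group with more than 2 tested genes was called lower in full. In 786-O the same complex was mixed, with 3 ratios under -0.5 and 2 over 0.5. ILK fell from 159 and 157 CPM to 85.4 and 83.3 CPM (-0.90 ± 0.04, adjusted p = 2.27e-10). LIMS1 fell from 79.2 and 91.2 CPM to 50.2 and 45.4 CPM (-0.83 ± 0.07, adjusted p = 9.39e-08), and reads shared with its near-identical paralogues may be missing from that count. LIMS2 had 81 and 89 counts in control and 41 and 44 counts in mimic libraries (-1.09 ± 0.20, adjusted p = 0.00037). The parvins moved less, PARVA from 29.5 and 31.4 CPM to 22.0 and 22.1 CPM (-0.47 ± 0.06, adjusted p = 1.13e-05) and PARVB by -0.37 ± 0.06 (adjusted p = 0.000132).

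Actin linkers and adaptors showed small differences. VCL fell from 545 and 551 CPM to 460.1 and 462 CPM (log2 change -0.25 ± 0.03, adjusted p = 1.9e-05), and TNS3 fell from 574 and 535 CPM to 444 and 449.8 CPM (-0.31 ± 0.04, adjusted p = 1e-05). ZYX and ACTN4 were also lower (-0.24 and -0.19), and ACTN1, FLNA and TNS1 were not called. Of the adaptors, PTK2 rose (0.50 ± 0.04, adjusted p = 2.82e-08), BCAR1 fell (-0.27 ± 0.06, adjusted p = 0.00199), and PXN was not called (0.00 ± 0.05).

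In ACHN, blocking miR-29 went with higher mRNA of ITGA11, ITGA5 and 14 further members. Of 38 members tested, 16 were higher and 5 lower with the inhibitor, and 17 were not called. Those are 42.1% higher and 13.2% lower, beside 17.3% and 14.4% of the 17904 genes tested (31.7% in either direction). The median log2 change was 0.12 over the tested members and 0.00 over all genes, and the members not called lay between ITGB7 (-0.40) and ITGA10 (0.44). Without inhibitor replicate 2, 17 were higher and 10 lower. ITGA8 and ITGA9 had too few counts to be tested.

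ITGA11 had the largest change, from 2.28, 2.09 and 1.999 CPM in control to 8.08, 10.8 and 8.43 CPM in inhibitor libraries. The lowest inhibitor library was well above the highest control (log2 change 2.09 ± 0.12, SE, n = 3 against 3; adjusted p = 4.51e-10 by edgeR; 4.25-fold). ITGA5 rose from 195, 206 and 215 CPM to 394, 423 and 389.9 CPM (0.97 ± 0.05, adjusted p = 2.1e-11). The other collagen receptor subunits called were ITGA2, from 60.0, 57.5 and 56.2 CPM to 91.1, 79.6 and 88.2 CPM (0.58 ± 0.05, adjusted p = 1.31e-07), and ITGA1, from 32.5, 33.8 and 34.2 CPM to 43.2, 42.4 and 47.1 CPM (0.40 ± 0.05, adjusted p = 7.7e-06).

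ITGA6 was at 136, 134 and 136 CPM in control and 171, 163 and 174 CPM in inhibitor libraries (0.33 ± 0.04, adjusted p = 1.44e-05). ITGAV was at 525, 539 and 508 CPM and then 690.3, 633 and 693 CPM (0.36 ± 0.04, adjusted p = 1.88e-06). Neither gene had overlapping groups, which was also so for ITGA10, a gene not called, and the share over all genes was not counted. ITGA3 was lower, at 1357, 1538 and 1574 CPM in control and 1259.9, 1419 and 1226 CPM in inhibitor libraries (-0.19 ± 0.05, adjusted p = 0.00788). Its groups overlapped, and it was not called without inhibitor replicate 3 (-0.15, adjusted p = 0.064). ITGA7 was lower as well (-0.26 ± 0.07, adjusted p = 0.00788).

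ITGB1, which had moved most in A-498, rose little in ACHN, from 1534, 1515 and 1501 CPM to 1721, 1629 and 1793 CPM. The groups did not overlap, again without a count of that over all genes (log2 change 0.18 ± 0.03, adjusted p = 0.000622 by edgeR, 1.13-fold). ITGB5 rose from 139, 137 and 147 CPM to 185, 199.6 and 185 CPM (0.42 ± 0.05, adjusted p = 1.42e-06), and ITGB6 from 149.9, 137 and 147 CPM to 161, 163 and 172 CPM (0.19 ± 0.05, adjusted p = 0.00398). ITGB2 rose from 20.9, 25.9 and 25.0 CPM to 31.0, 36.3 and 34.1 CPM (0.50 ± 0.07, adjusted p = 3.4e-05). The one beta gene that fell was ITGB4, from 15.9, 18.8 and 19.7 CPM to 10.7, 14.4 and 13.1 CPM (-0.51 ± 0.09, adjusted p = 0.000436). ITGB3 and ITGB8, both low in this line, were not called (-0.06 ± 0.07 and 0.00 ± 0.07).

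The kindlins moved in opposite directions. FERMT2 rose from 112, 108 and 113 CPM to 157, 144 and 159 CPM (0.46 ± 0.05, adjusted p = 6.58e-07), and FERMT1 fell from 19.6, 23.4 and 21.1 CPM to 11.9, 12.05 and 13.1 CPM (-0.79 ± 0.07, adjusted p = 1.32e-07). TLN2 was higher (0.22 ± 0.06, adjusted p = 0.0065), a call lost without control replicate 1 (0.16, adjusted p = 0.0573), and TLN1 was not called.

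In the integrin-linked kinase complex 2 of 5 genes were called, each higher, beside 17.3% of all genes tested. ILK went from 141, 138 and 145 CPM to 166, 169 and 166 CPM (0.24 ± 0.04, adjusted p = 0.000225), and PARVA from 99.1, 102 and 99.5 CPM to 115, 114 and 118 CPM (0.20 ± 0.04, adjusted p = 0.00146). LIMS1 was not called (0.08 ± 0.05, adjusted p = 0.239), and its groups overlapped (109, 113 and 108 CPM against 120.4, 110.2 and 117 CPM). LIMS2 was not called either (0.38 ± 0.19, adjusted p = 0.146).

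VCL rose from 657, 656 and 689 CPM to 773, 793 and 760.2 CPM (0.22 ± 0.04, adjusted p = 0.000106). TNS3 was at 248, 249 and 276 CPM in control and 269, 326 and 311 CPM in inhibitor libraries, with 1 inhibitor library below the highest control (0.23 ± 0.06, adjusted p = 0.00606). TNS1 was lower (-0.20 ± 0.06, adjusted p = 0.0128), with overlap, and that call was lost without control replicate 2 (-0.17, adjusted p = 0.0814) or inhibitor replicate 3 (-0.16, adjusted p = 0.0798). None of PTK2, PXN and BCAR1 was called in ACHN, with log2 changes from -0.07 to 0.12.

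The reagents act in opposite directions on miR-29, and A-498 and ACHN share no control library, so the calls were set side by side. Of 37 members tested in both lines, 12 were lower with the mimic in A-498 and higher with the inhibitor in ACHN (32.4%, beside 10.5% of 16708 genes). They were 7 integrins (ITGA1, ITGA11, ITGA6, ITGA5, ITGAV, ITGB1 and ITGB5) and 5 others (FERMT2, ILK, PARVA, VCL and TNS3). ITGA3 alone showed the reverse, higher with the mimic but lower once miR-29 was blocked (background 7.37%). No member was lower in both lines, and ITGB6 was higher in both. Control and treated libraries were fully separated for 12 of the 12 genes in A-498 and for 11 of them in ACHN, the exception being TNS3. The 12 were picked by their calls in these same libraries, so the separation adds no support. Its share over all genes was not counted. Each of the 12 kept both calls under the 19 other settings tried for either line.

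**Figure D3:**
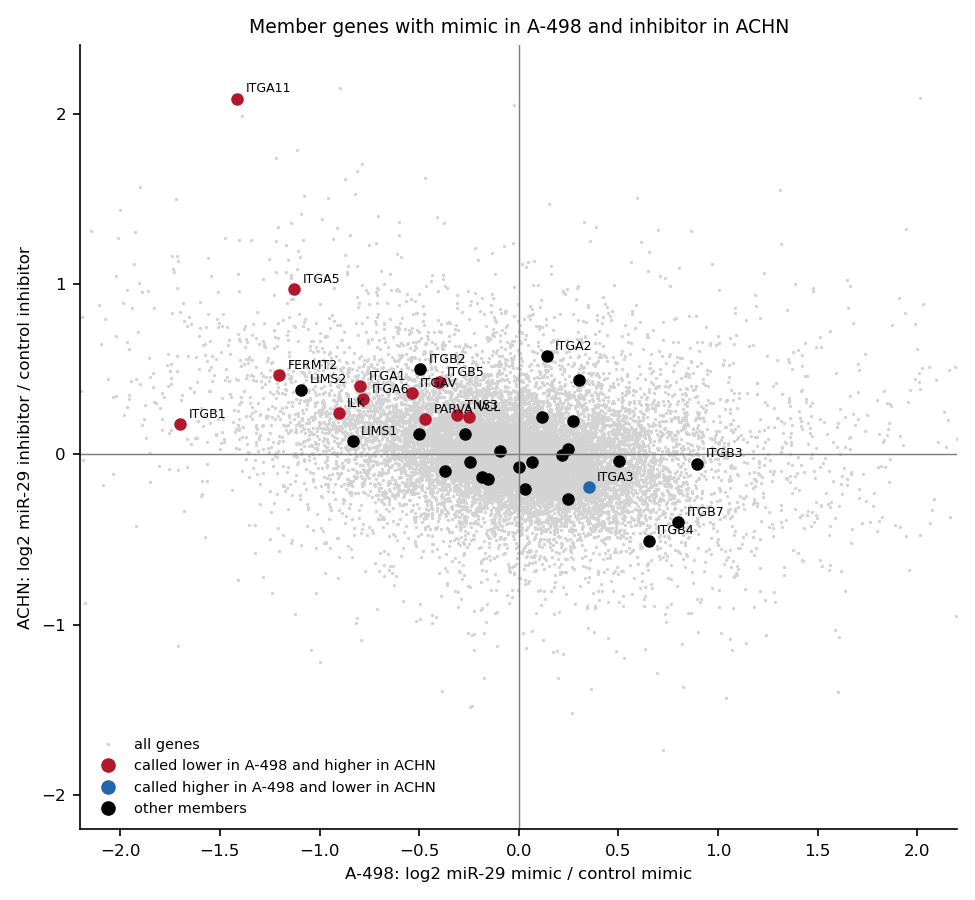
Log2 change with the miR-29 mimic in A-498 (x axis) against that with the miR-29 inhibitor in ACHN (y axis) for 37 members (large points). Grey points are genes tested in both lines, by symbol or, where a gene had none, by Ensembl ID. Repeats of a symbol and points outside the axes are not drawn. The 12 members called lower and then higher (red) lie at the upper left, with ITGA11, ITGA5, FERMT2 and ITGB1 farthest out.

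The sizes did not follow a common scale between the lines. ITGB1 changed by -1.70 in A-498 and 0.18 in ACHN, whereas ITGA5 changed by -1.13 and 0.97. The difference between mimic and inhibitor effect was not tested, since line and reagent cannot be told apart.

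In 786-O, 1 library per group gave ratios without a test. Of 37 members that reached 10 counts over both libraries, 13 had a log2 ratio under -0.5 and 8 a ratio over 0.5 (35.1% and 21.6%, beside 22.2% and 18.8% of 20370 genes, 41.0% in either direction). The median was -0.09, that of all genes -0.01. Over genes with at least 50 counts these medians were -0.23 and -0.03. ITGA11 (5 and 2 counts), ITGA8 and ITGA9 had too few counts.

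ITGA5 was at 322 CPM in the control and 94.7 CPM in the mimic library (log2 ratio -1.77, 3.4-fold lower), and ITGA6 was at 106 and 40.6 CPM (-1.38). FERMT2 was at 93.9 and 37.9 CPM (-1.31). ITGB1 was at 844 and 406 CPM (-1.06), and ILK at 130.2 and 61.5 CPM (-1.08). All of these were lower with the mimic, as in A-498. VCL was at 942 and 509 CPM (-0.89), ITGAV at 529 and 329 CPM (-0.69), ITGA1 at 20.2 and 13.4 CPM (-0.59), and ITGB5 at 221 and 147 CPM (-0.59). TNS3 was at 172 and 141 CPM (-0.29). Of the 12 genes of opposite direction in A-498 and ACHN, 10 thus had a ratio below 0 in 786-O (27.8% of 36 members with a value in all 3 lines, beside 9.33% of 15898 genes), ITGA11 had no ratio, and PARVA was higher. The gap to all genes largely repeats the calls by which the 12 were picked. Among all genes, 1752 had those calls in A-498 and ACHN, and 1484 of them also had a 786-O ratio under 0.

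LIMS1 had the lowest ratio, at 321 and 81.1 CPM (-1.99, 3.96-fold lower). The highest were ITGB4, with 43 and 128 counts (1.51), and ITGB8, at 193 and 487 CPM (1.33, 2.52-fold higher). ITGB8 also had its highest control level in this line. Of the integrin-linked kinase complex, both LIMS2 and PARVA were higher than in the control. LIMS2 had 40 and 81 counts (0.97), PARVA was at 91.2 and 168 CPM (0.88), PTK2 at 337 and 541 CPM (0.68), and TLN2 at 97.8 and 145 CPM (0.57). ITGB3 was at 131 and 158 CPM (0.27) and ITGA3 at 902 and 977 CPM (0.12). ITGB6 was lower, at 62.0 and 38.3 CPM (-0.69), and so were ITGB2, with 161 and 101 counts (-0.68), and PARVB, at 27.1 and 16.0 CPM (-0.76). ITGA10 and ITGB7 also had ratios over 0.5, on at most 22 counts in a library. The other 16 members lay between ZYX (-0.41) and ITGB3.

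**Figure D4:**
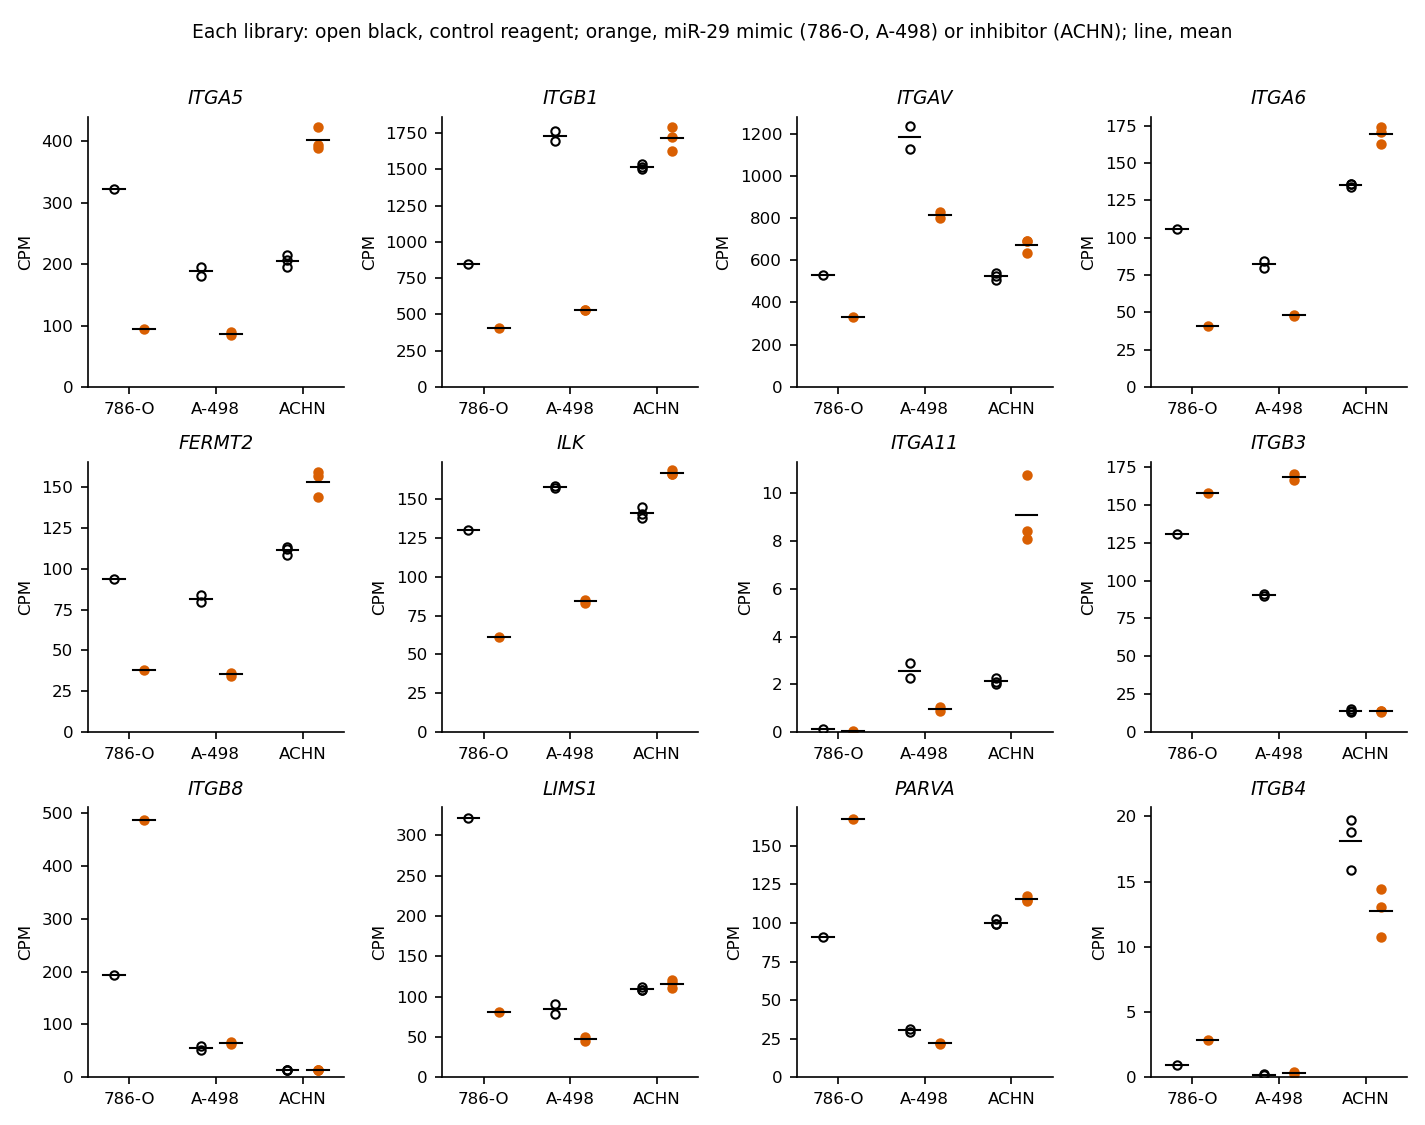
CPM of 12 members in every library (linear axes from 0); open circles are control libraries, filled orange circles are miR-29 mimic (786-O, A-498) or miR-29 inhibitor (ACHN) libraries, and lines are means. ITGA5 falls to 94.7 CPM in 786-O and to 83.8 to 88.7 CPM in A-498 with the mimic and rises to between 389.9 and 423 CPM in ACHN with the inhibitor, while ITGB8, LIMS1 and PARVA differ most between the lines given the mimic.

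The response to the mimic in 786-O was compared with that in A-498 through an interaction term in edgeR, with the spread taken from A-498 alone. At an adjusted p under 0.05 and a difference of at least 1 on the log2 scale, 4 members differed (7.65% of 22587 genes did, a share near that of the members). All members but ITGA8 were tested. LIMS2, lower in A-498 and higher in 786-O, differed by 2.15 ± 0.36 (adjusted p = 9.54e-05), and PARVA, with the same signs, by 1.40 ± 0.09 (adjusted p = 2.65e-10). ITGB8 was higher in both and more so in 786-O (1.17 ± 0.09, adjusted p = 4.04e-09). LIMS1 was lower in both and more so in 786-O (-1.10 ± 0.10, adjusted p = 5.24e-08). With a wider assumed biological coefficient of variation of 0.2, only LIMS2 was still called (adjusted p = 0.0365). For FERMT2 and ILK the difference was -0.05 ± 0.09 and -0.12 ± 0.07 (adjusted p = 0.735 and 0.247).

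The genes with a seed match, whose sites are printed with the miR-29 strands, were compared by counts alone. Of the 5, 4 were called lower in A-498 (FERMT2, ITGB1, VCL and BCAR1), beside 15 of 32 tested members without a match. Over the tested genes with a MANE Select 3′ UTR, 58.6% of 1546 with a match and 30.1% of 12119 without were called lower in that line. In ACHN 4 of the 5 were called higher (FERMT2, ITGB1, VCL and TLN2), beside 12 of 33 without a match. Over tested genes with such a UTR the shares were 44.2% of 1494 with a match and 18.6% of 11435 without. In 786-O 3 of the 5 had a ratio under -0.5 (FERMT2, ITGB1 and VCL), beside 10 of 32. Over genes with such a UTR and a ratio the shares were 43.4% of 1523 and 17.7% of 11908. TLN2 was not called in A-498 and was at 0.57 in 786-O.

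Most members that moved hold no such match. ITGA11 and ITGA6 hold the shorter 7mer-A1 (GGTGCTA, at 320 nt and 1570 nt), and ITGA5 and ITGB5 a 6mer alone (GGTGCT, at 89 nt and 813 nt). A match of 6 letters or more was in 13 of the 40 genes and in 23.7% of 18780 genes with a MANE Select 3′ UTR. ITGA1, ITGAV and ILK had no match of any of these kinds in the UTR searched, which says only that these letters are not in that window.

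Other genes of the same machinery were taken from a list of 59 focal adhesion genes that are not members. In A-498, 21 of 56 tested were lower and 16 higher (37.5% and 28.6%, beside 27.0% and 25.5% of all genes). CAV1, the caveolae scaffold, was lowest (log2 change -1.37 ± 0.04, adjusted p = 4.53e-12), followed by the small GTPase CDC42 (-0.98 ± 0.04, adjusted p = 1.45e-10). The muscle-type filamin FLNC (0.67 ± 0.05, adjusted p = 2.26e-08) and the adaptor SHC1 (0.57 ± 0.04, adjusted p = 1.17e-08) were the highest with a mean log2 CPM of 3 or more, and ELMO1 was higher still (0.79 ± 0.22, adjusted p = 0.0073) on at most 102 counts. In ACHN, 8 of 57 were lower and 7 higher (14.0% and 12.3%), both below the 14.4% and 17.3% of all genes. At a mean log2 CPM of 3 or more, called changes ran from PTPN11 (-0.23 ± 0.04) and GIT1 (-0.20 ± 0.06) to FBLIM1 (0.21 ± 0.05) and CAV1 (0.23 ± 0.03, adjusted p = 3.66e-05). Genes called higher below that level included NEDD9 (0.86 ± 0.24) and FYN (1.10 ± 0.34). In 786-O, 11 of 56 had a ratio under -0.5 and 6 over 0.5 (19.6% and 10.7%, beside 22.2% and 18.8%).

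Of 22 non-collagen, non-laminin integrin ligands, 12 of 20 tested were lower and 5 higher with the mimic in A-498 (60.0% and 25.0%, beside 27.0% and 25.5% of all genes). With the inhibitor in ACHN 9 of 18 were higher and 3 lower (beside 17.3% and 14.4%), and in 786-O 6 of 17 had a ratio under -0.5 and 2 over 0.5 (35.3% and 11.8%, beside 22.2% and 18.8%). The basement membrane linker NID1 changed by -2.66 ± 0.05 in A-498 and 0.80 ± 0.05 in ACHN, and fibrillin-1 (FBN1) by -1.92 ± 0.09 and 1.31 ± 0.05. Fibronectin (FN1), the main ligand of the ITGA5 receptor, was lower in ACHN while that receptor gene was higher. Its levels there were 2359.7, 2452 and 2447 CPM in control and 1855, 1821 and 1897 CPM in inhibitor libraries (-0.38 ± 0.03, adjusted p = 1.88e-08), and in A-498 it was lower as well (-0.28 ± 0.04, adjusted p = 1.56e-05). THBS1, the matrix protein thrombospondin-1, was lower in ACHN (-0.24 ± 0.04) and in A-498 (-0.62 ± 0.04, adjusted p = 5.71e-09), and in 786-O it was at 2003 CPM in the control and 3727 CPM in the mimic library (log2 ratio 0.90). MFGE8 and SPP1 were called higher in A-498 (0.39 ± 0.05 and 0.17 ± 0.03), and so were EMILIN1 (0.72 ± 0.25), VTN (0.58 ± 0.16) and TNXB (0.46 ± 0.16), each with at most 168 counts in a library. Among 5 integrin alpha genes outside the member list, 3 were tested in each line. In A-498 2 were higher, beside 25.5% of all genes. They were ITGAM, on 127 to 284 counts a library, and ITGAX, on 256 to 423. In ACHN 1 was higher, beside 17.3% of all genes.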

How the data were processed

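RNA-seq counts of 12 libraries were used. The authors prepared stranded libraries after ribosomal RNA depletion, aligned reads to GRCh38 with HISAT2 and deposited raw HTSeq counts per Ensembl v87 gene, without normalisation. Reads assigned to no gene, 37.2% to 48.0% of all, were left out. The authors' own tables of DESeq2 fold changes and p-values were not used. Symbols came from GENCODE v44 by Ensembl ID (56948 of 58051 IDs, 98.1%).

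Counts were tested with edgeR 4.0.16 (R 4.3.3; glmQLFit, glmQLFTest, filterByExpr, TMM, two-sided, Benjamini-Hochberg over all tested genes), within each line and on the 6 control libraries for the lines. A gene was called at an adjusted p under 0.05. In 786-O, log2 ratios used prior count 2. RPKM used the union of GENCODE v44 exons. Fits gave a biological coefficient of variation of 3.83% (A-498) and 5.25% (ACHN). The methods call replicates biological. Each pair differed beyond counting error (chi-square over degrees of freedom 3.87 to 12.2), which sets them apart from copies but does not show at which step they were separated. CPM are shares of a library, so fewer transcripts per cell and more of other transcripts cannot be told apart. In simulated data 83% (A-498) and 86% (ACHN) of log2 changes of 0.5 were recovered, with 12 and 11 false calls. There 100 genes were changed by 0.5 and 100 by 1, far fewer than were called in the real libraries, so recovery in those may differ.

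The members, lists and tests were chosen with earlier results of these data known. Members were given values in every library when called in opposite directions in A-498 and ACHN, when among the 6 largest changes in a line (average log2 CPM at least 0, or at least 10 counts in both 786-O libraries), or when among the 3 leading alpha or beta genes of a line. From the other lists the 2 lowest and 2 highest called genes were named, given a mean log2 CPM of 3 or more, and those below that level, with THBS1 outside ACHN and the fibroblast markers, were named after their values were seen. Other members named in the text were added for completeness of the list.

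Alternatives were DESeq2 1.42.0, other scalings, filters, prior counts, a replicate block, single libraries left out, and other definitions of a match and of gene length, of which the longest 3′ UTR and the MANE Select length were chosen after seeing the data.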

Additional observations from a re-analysis of the deposited data

Results flagged for a closer look

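For 4 members the response to the miR-29 mimic in 786-O was unlike that in A-498, each past an adjusted p of 0.05 in edgeR's interaction test and by at least 1 on the log2 scale. All members but ITGA8 were tested, and 7.65% of 22587 genes passed the same limits, so the share of members was near that of all genes. LIMS2 differed by 2.15 (786-O minus A-498), from 81 and 89 counts to 41 and 44 counts in A-498 and from 40 to 81 counts in 786-O. PARVA differed by 1.40, with a log2 change of -0.47 in A-498 and 0.88 in 786-O. ITGB8 differed by 1.17, with 0.22 in A-498 and 1.33 in 786-O. LIMS1 differed by -1.10, with -0.83 in A-498 and -1.99 in 786-O. The 3 genes LIMS1, LIMS2 and PARVA belong to the integrin-linked kinase complex, whose kinase ILK differed by -0.12 ± 0.07 (adjusted p = 0.247). The complex was not tested as a set. The 786-O arms had 1 library each, so their own spread was not measured. Under an assumed coefficient of variation of 0.2 the adjusted p was 0.0365 for LIMS2, 0.164 for PARVA, 0.322 for ITGB8 and 0.378 for LIMS1.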

How the results depend on the processing

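With a single library left in an arm, that library was assumed to vary like the others. The count of members lower with the inhibitor in ACHN ranged from 4 to 10 when single libraries were left out, the 10 without inhibitor replicate 2. Of the 4 members whose response to the mimic in 786-O was unlike that in A-498 (3 higher and 1 lower), 1 higher and 0 lower were left at a coefficient of variation of 0.2. With library size alone 2 were lower, and with single A-498 libraries left out from 0 to 2 were lower, since ITGB6 (-1.03 without mimic replicate 1), LIMS1 (-0.998 without control replicate 1) and ITGB8 lie close to the limit of 1. The 5 members with a miR-29 match became 8 over the whole 3′ UTR, 1 for the 8mer alone and 13 for 6 letters or more. Scaling A-498 by library size alone moved all genes from 5313 lower and 5015 higher to 4352 and 6191. The other counts of called members stayed within 1.5 times under every alternative tried, and no called direction was reversed. The block on replicate number in ACHN gave 22 called members in place of 21, with 16 higher and 6 lower. Same-numbered control and inhibitor libraries deviated with correlations of 0.18, -0.27 and -0.12, and those of unlike number with correlations from -0.35 to 0.33. Deviations within a group of 3 depend on each other, so these values cannot show whether the numbers mark pairs. A batch shared across the groups was not tested. No block was possible in A-498, where the groups share 1 number. Genes under about 100 counts (ITGA10, ITGA7, ITGB2, ITGB4, ITGB7 and LIMS2 in A-498) had SE from 0.20 to 0.41, so small changes in them were not detectable.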
